A study of Mus musculus with 6 samples.

Results

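The genes described here are 9 that make up the platelet-derived growth factor (PDGF) system and the pericyte ATP-sensitive potassium (KATP) channel with its companion mural genes: the ligands Pdgfa and Pdgfb, the receptors Pdgfra and Pdgfrb, the channel subunits Kcnj8 and Abcc9, the signalling regulators Rgs4 and Rgs5, and the endothelin receptor Ednra. They were taken by gene symbol, as 9 of the 31053 genes annotated in the cortical libraries and of the 27998 in the hippocampal libraries, and all 9 had the same identifier in both annotations. The data were single-cell RNA-seq of mouse brain (10x Genomics Chromium) from wild-type C57Bl/6J females, with no genetic change or experimental treatment in either group. All mice were anaesthetised with sodium pentobarbital and perfused with ice-cold buffer before dissection. The cortical preparation pooled the cortices of 3 mice aged 3 weeks and the hippocampal preparation pooled the hippocampi of 3 mice aged 5 weeks, and each cell suspension was loaded as 3 libraries. Tissue was digested with papain, dispase and DNase, and myelin was removed before loading. The 3 libraries of a preparation are therefore technical replicates of 1 pooled sample. Each SD below is taken over these 3 libraries and holds no spread between animals, so each preparation counts as 1 biological sample and no test was made. Whether libraries overlap is likewise a description, and the share of all genes with no overlap is not given. Region, age, preparation and gene annotation change together between the preparations and cannot be told apart.

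The cortical libraries held 5834 to 6121 barcodes and 39662203 to 42097490 unique molecular identifiers (UMIs, tags that count each captured RNA molecule once), and the hippocampal libraries 4894 to 5232 barcodes and 43963706 to 50024850 UMIs. Of these barcodes 13320 of 17937 and 14210 of 15336 were kept as cells. Clusters were named from marker genes, and each name means cells like that type: among the kept cells were 2594 cortical and 1774 hippocampal endothelial-like cells, 129 and 367 pericyte-like cells, 171 and 86 vascular smooth muscle cell (VSMC)-like cells, and 68 and 38 fibroblast-like cells. No cortical cluster met the marker rule for oligodendrocyte precursors alone or for mature neurons. The cortical counterpart of the precursors is therefore 1 cluster of 40 cells carrying precursor and committed oligodendrocyte markers together. Mature neuron-like cells (79) were described in the hippocampus alone, and they passed 6 mature and 5 immature neuron markers. Their leading genes were Reln, Snhg11, Meg3, Cacna2d2, Lhx1, Gap43, Clstn2, Nhlh2, Slc17a6 and Ndnf. Which neurons they are was not tested, and they need not stand for hippocampal neurons in general. A further 186 cortical and 265 hippocampal cells carried endothelial and mural markers together, and they are given as a class of their own because a cell pair and a single cell of both kinds cannot be told apart. Levels are in CPM, the UMIs of a gene in all cells of a class in 1 library, scaled to the usual counts-per-million total of those cells. CPM compares 1 gene between classes and not 1 gene with another. Of the kept cells 61 cortical and 687 hippocampal ones shared a barcode with a cell of another library of the same preparation, and 511 of the latter were choroid plexus-like, with a median of 875 UMIs. Without them no level or ratio given here changed its direction or its side of 2-fold.

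PDGF ligands are secreted dimers that bind receptor tyrosine kinases. PDGF-B made by endothelium acts on PDGFRβ of mural cells and is known for recruiting pericytes to growing capillaries, and PDGF-A acts mainly on PDGFRα, a receptor of oligodendrocyte precursors and of fibroblasts. The vascular KATP channel joins the pore subunit Kir6.1 (Kcnj8) with the sulfonylurea receptor SUR2 (Abcc9), and it opens when cellular ATP falls, which hyperpolarises the cell. RGS4 and RGS5 speed the shut-off of G proteins, and the endothelin A receptor (Ednra) couples endothelin to contraction of mural cells.

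Clusters were named with the marker lists, so the marker sums describe the mural classes and do not test their separation. In pericyte-like cells all 14 pericyte markers stood above 5 CPM in both preparations, and their summed level was 24826 to 26293 CPM in the cortical and 36341 to 37939 CPM in the hippocampal libraries. VSMC markers (12 genes) in the same cells summed to 744 to 2883 CPM in the cortex, with 9 of 12 above 5 CPM, and to 323 to 546 CPM in the hippocampus, with 8 of 12. Endothelial markers (16 genes, all above 5 CPM) summed to 1062 to 2403 CPM and to 1043 to 1210 CPM. In VSMC-like cells, pericyte markers summed to 2109 to 2275 CPM in the cortex, with 11 of 14 above 5 CPM. In the hippocampus they summed to 1901 to 2402 CPM, with 9 of 14. These values touch every pericyte-like and VSMC-like level below, and their part in those levels was not tested. The 9 genes and their pathway lists were left out, by symbol, of the genes used for clustering and of the markers used for naming. The pathway genes Gucy1a1 and Gucy1b1, whose symbols were not matched in the hippocampal annotation, may have stayed in its clustering. Genes that vary with the 9 genes and the lists were not left out, so the contrasts between classes are descriptions.

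**Figure D1:**
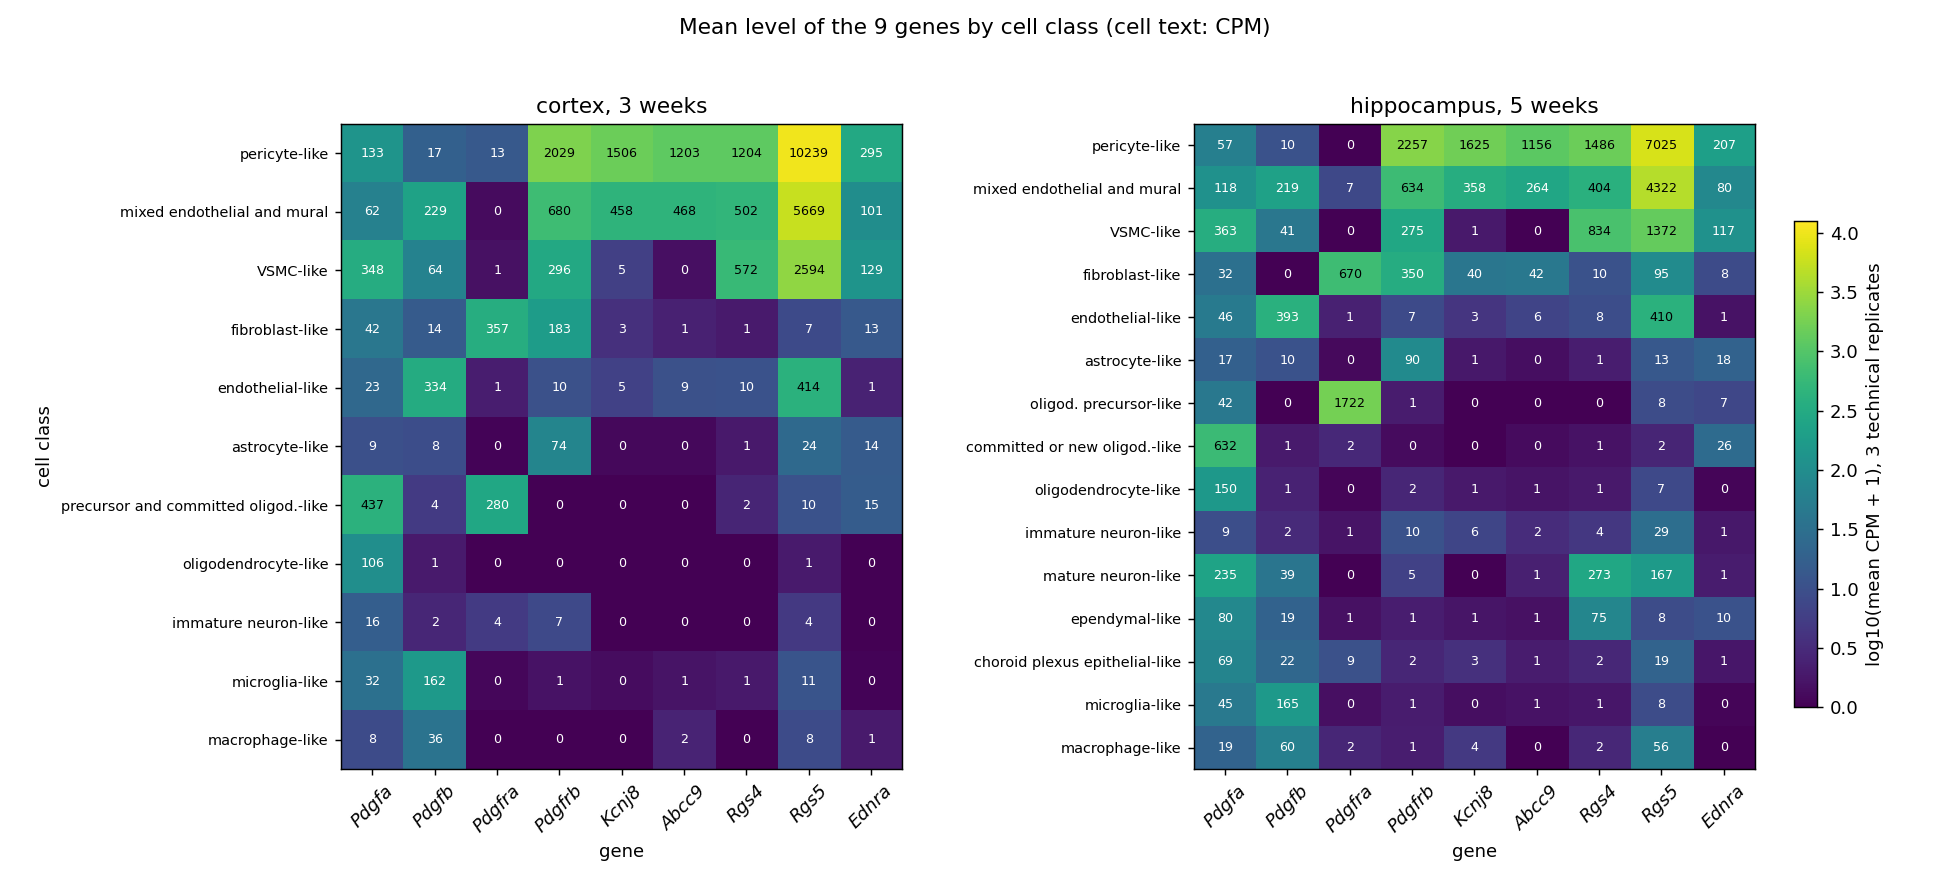
Mean level of each gene (columns, mean of 3 libraries in CPM, colour on a log scale) in each class (rows) of the cortical and the hippocampal preparation, with the blood cell classes left out. Kcnj8 and Abcc9 are high in the pericyte-like and mixed classes, Pdgfb is high in endothelial-like and microglia-like cells, and Pdgfra is high in precursor-like and fibroblast-like cells.

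Pdgfb, the endothelial ligand, was highest in endothelial-like cells, and microglia-like cells came next among the classes of a single type. In endothelial-like cells it measured 336.2, 329.4 and 336.0 CPM in the cortical libraries (333.9 ± 3.8, SD) and 390.1, 390.5 and 397.3 CPM in the hippocampal libraries (392.6 ± 4.0). The libraries of the 2 preparations did not overlap, and the hippocampal level exceeded the cortical one by 0.23 on the log2 scale (95% interval 0.18 to 0.28, exact conditional binomial, counting error only). The median over all genes compared in this class was 0.13. Microglia-like cells held 162.4 ± 6.0 and 164.7 ± 6.2 CPM, and the endothelial-like level was 2.06 and 2.38 times theirs. Microglia-like cells were also the most numerous class, and they supplied 36.5% of all Pdgfb UMIs in kept cortical cells and 48.2% in the hippocampus, against 49.7% and 39.2% from endothelial-like cells.

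Pdgfb was spread over many microglia-like cells. After each cell was thinned to 1000 UMIs, 15.0% of cortical and 15.3% of hippocampal microglia-like cells held a Pdgfb UMI (54.0% and 62.0% before thinning, median depth 5472 and 6612 UMIs), against 0.431% and 0.593% of astrocyte-like cells, which stand in for the background (median 6443 and 6693 UMIs). The same share in endothelial-like cells was 29.0% and 32.9% (86.4% and 89.6% before thinning). Every microglia-like cluster carried it, at 131.5 to 208.3 CPM in the cortex and 147.2 to 179.4 CPM in the hippocampus. Shallow cells left out of the thinning were 75 and 41 microglia-like, 159 and 129 astrocyte-like, and 2 and 1 endothelial-like cells.

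Within the endothelium, Pdgfb was lowest in the venous-like cells of both preparations. The cortical venous-like libraries held 191.3, 110.1 and 155.7 CPM (152.4 ± 40.7), below the arterial-like 363.5, 367.6 and 383.1 CPM (371.4 ± 10.4) and the angiogenic-like 450.2, 402.7 and 475.9 CPM (443.0 ± 37.2). In the hippocampus, venous-like cells held 308.6 ± 36.9 CPM, arterial-like cells 402.6 ± 12.02 CPM and capillary-like cells 429.9 ± 19.7 CPM. The venous-like libraries lay apart from both others in each preparation, while the arterial-like level did not separate from the capillary-like one in the hippocampus. The segment names came from clustering the same cells, so these levels are a description.

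**Figure D2:**
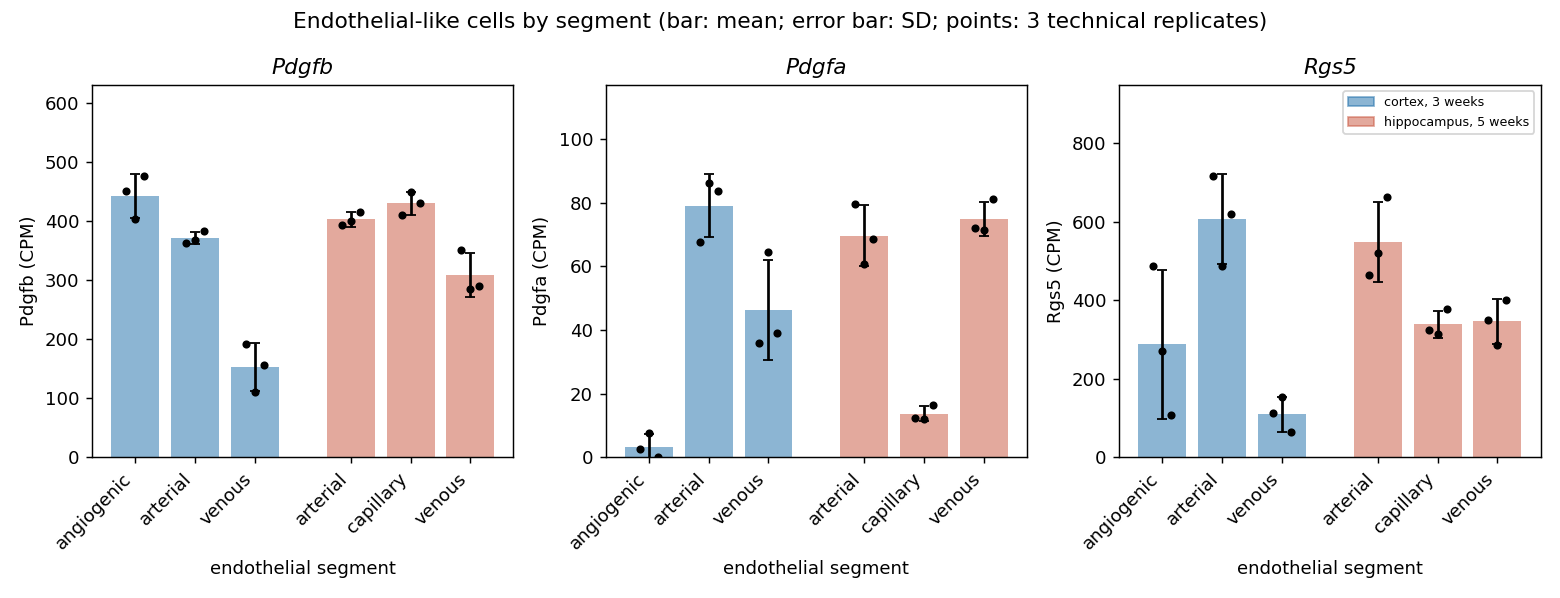
Levels of Pdgfb, Pdgfa and Rgs5 in the named endothelial segments (x axis) of each preparation (y axis in CPM, linear from 0), with points for the 3 libraries, a bar at their mean and an error bar of 1 SD. Venous-like cells hold the least Pdgfb in both preparations.

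Mural classes and fibroblasts held little Pdgfb. VSMC-like cells held 47.3, 56.2 and 90.0 CPM in the cortex and 54.5, 40.9 and 26.4 CPM in the hippocampus. Pericyte-like cells held 10 UMIs (32.3, 4.76 and 13.2 CPM) and 15 UMIs (14.2, 10.9 and 3.67 CPM), so that the endothelial-like level was 20.8 and 41.5 times the pericyte-like one. Among the 9 genes Pdgfb alone was over 2-fold higher in endothelial-like than in pericyte-like cells in each preparation, where 11.2% and 14.7% of all genes compared were. Fibroblast-like cells held 12 and 0 UMIs, and oligodendrocyte precursor-like cells of the hippocampus 0, where the floor of 3 UMIs set for a count of 0 corresponds to 9.40 and 4.51 CPM respectively.

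Pdgfa, the ligand of PDGFRα, was highest in the oligodendrocyte lineage and in VSMC-like cells. Committed or newly formed oligodendrocyte-like cells of the hippocampus held 686.9, 493.3 and 714.4 CPM (631.6 ± 120.5), and the cortical precursor and committed class 643.8, 337.2 and 331.4 CPM (437.5 ± 178.8). VSMC-like cells held 342.5, 355.8 and 346.4 CPM in the cortex (348.2 ± 6.8) and 324.7, 372.4 and 391.1 CPM in the hippocampus (362.8 ± 34.2). In the cortex the 2 classes overlapped between libraries and their order is not settled, whereas every committed-like library of the hippocampus was above every VSMC-like one. The precursor-like cells of the hippocampus, which carry the receptor, held only 54.8, 46.3 and 26.0 CPM. Microglia-like cells held 31.8 ± 3.9 and 45.2 ± 3.1 CPM and, by their number, supplied 33.6% and 18.9% of all Pdgfa UMIs. VSMC-like cells supplied 21.2% and 4.51%, and oligodendrocyte-like cells 2.53% and 34.5%.

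Mature neuron-like and oligodendrocyte-like cells carried Pdgfa too. Mature neuron-like cells of the hippocampus held 239.3, 212.8 and 253.4 CPM (235.2 ± 20.6), above oligodendrocyte-like cells with 152.9, 138.5 and 159.5 CPM (150.3 ± 10.7). Immature neuron-like cells held 8 cortical and 29 hippocampal UMIs (15.7 ± 13.8 and 8.72 ± 5.14 CPM). The 68 cortical cells had Dlx1, Dlx2 and Sp9 among their leading genes. In the hippocampus a cluster of 45 cells did too, while clusters of 163 and 134 cells had Neurod1 and not these genes. The class therefore need not hold the same neurons in both preparations. The level of the 26 cortical oligodendrocyte-like cells was 106.3 ± 12.99 CPM. After thinning to 1000 UMIs a Pdgfa UMI was found in 27.8% of mature neuron-like cells (86.1% before thinning, median 10512 UMIs), in 27.1% and 32.6% of VSMC-like cells, and in 0.705% and 1.35% of astrocyte-like cells.

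Between pericytes and VSMC, both ligands were higher in VSMC-like cells. For Pdgfa these cells held 2.61 times the pericyte-like level in the cortex (129.3, 142.9 and 127.7 CPM in pericyte-like cells, 133.3 ± 8.4) and 6.38 times in the hippocampus (73.3, 50.9 and 47.7 CPM, 57.3 ± 13.9). Pdgfa and Pdgfb were the 2 of 9 genes over 2-fold higher in VSMC-like cells, where 7.53% of all genes compared in the cortex and 9.9% in the hippocampus were, and Pdgfb turned direction in both when the mixed class was counted as pericyte-like. The pericyte-like level fell by 1.23 on the log2 scale from cortex to hippocampus (interval −1.68 to −0.79), with no overlap between libraries, on 83 and 90 UMIs. This ratio depended on where the classes were drawn. At a finer clustering (resolution 1.0) the cortical level was 67.8 CPM and the log2 ratio −0.22, with cells classed by their own markers it was −0.99, as a mean over cells −0.89, and with the mixed class counted as pericyte-like it turned to 0.44. The summed VSMC markers given above were higher in the cortical pericyte-like cells. Their part in the difference was not tested.

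Endothelial-like cells differed in the other direction. They held 19.95, 25.01 and 24.08 CPM of Pdgfa in the cortex and 48.7, 43.5 and 46.6 CPM in the hippocampus, a log2 ratio of 1.01 (0.84 to 1.18) with no overlap, and arterial-like and venous-like cells held more than the other named segment in each preparation. The ratio lies at the 2-fold limit and fell below it under several alternatives. In the cortex, arterial-like cells held 79.1 ± 10.0, venous-like cells 46.4 ± 15.7 and angiogenic-like cells 3.41 ± 3.94 CPM. In the hippocampus, venous-like cells held 74.9 ± 5.4 and arterial-like cells 69.6 ± 9.6 CPM, with overlapping libraries, so their order is not settled, and capillary-like cells held 13.7 ± 2.3 CPM. Segments were named separately in each preparation, and the make-up by named segment differs between the pooled endothelial values. Arterial-like cells were 296 of 2594 endothelial-like cells in the cortex and 606 of 1774 in the hippocampus. Their own Pdgfa level was not higher in the hippocampus, and the libraries overlapped. Venous-like cells numbered 70 and 260, and their level was higher in the hippocampus with no overlap. In the cortex 2103 cells were in no named segment. The part of the make-up in the pooled ratio was not tested.

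Pdgfra marked oligodendrocyte precursors and fibroblasts and was low elsewhere. The precursor-like cells of the hippocampus held 2108, 1601 and 1458 CPM (1722 ± 342; 1087 UMIs), and these 72 cells supplied 69.1% of all Pdgfra UMIs there. The cortical precursor and committed class held 336.2, 183.5 and 321.6 CPM (280.4 ± 84.3). Its median depth was 13874 UMIs, and a Pdgfra UMI was found in 9 of its 40 cells. After thinning to 1000 UMIs the share was 79.2% in precursor-like cells (97.2% before, median 8981 UMIs) against 0.083% in hippocampal microglia-like cells (0.216% before).

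Fibroblast-like cells ranked below the precursor-like cells in the hippocampus. In the cortex they had the highest mean of the classes, but their libraries overlapped those of the precursor and committed class. They held 364.7, 305.5 and 401.7 CPM of Pdgfra in the cortex (357.3 ± 48.5; 296 UMIs in 68 cells) and 716.5, 560.7 and 732.5 CPM in the hippocampus (669.9 ± 94.9; 211 UMIs in 38 cells). The log2 ratio was 0.87 (0.61 to 1.13) and the libraries did not overlap, while the median over all genes compared in this class was 0.13. Under a limit of 10% mitochondrial UMIs the cortical level was 548.7 CPM and the log2 ratio 0.52. In the cortex they supplied 58.3% of all Pdgfra UMIs.

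Pdgfra separated fibroblasts from mural cells. The hippocampal fibroblast-like level was at least 350-fold that of pericyte-like cells, which held 0 UMIs, with the bound set at a floor of 3 UMIs over the preparation (1.89 CPM). In the cortex, pericyte-like libraries held 0, 0 and 39.6 CPM, all 9 UMIs of the third library coming from 1 cell, and the ratio was 25.1 (13.03 to 55.4). VSMC-like cells held 1 and 0 UMIs and hippocampal mature neuron-like cells 0. It was the 1 gene of the 9 over 2-fold higher in fibroblast-like than in pericyte-like cells in either preparation, where 14.2% (cortex) and 11.6% (hippocampus) of all genes were, against 7 and 6 of the 9 in the other direction, where 18.5% and 12.3% were.

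Pdgfrb, the receptor of PDGF-B, was highest in pericyte-like cells. It measured 2047, 2172 and 1866 CPM in the cortical libraries (2029 ± 154; 1260 UMIs) and 2389, 2360 and 2022 CPM in the hippocampal ones (2257 ± 204; 3576 UMIs), and the libraries of the preparations overlapped. VSMC-like cells held 282.6, 296.5 and 308.9 CPM and 229.9, 270.3 and 325.1 CPM. The pericyte-like level was 6.84 (6.20 to 7.56) and 8.24 (7.37 to 9.24) times that of VSMC-like cells, and 208 and 310 times that of endothelial-like cells (9.55 ± 5.38 and 7.29 ± 0.96 CPM). In the cortex 128 of the 226 endothelial-like UMIs came from 1 endothelial-like cluster of 209 cells in no named segment (53.1 CPM). It also had the highest Rgs5 level of the cortical endothelial-like clusters. It passed 3 arterial markers, and its leading genes over all cells included Egfl8, Sema3g, Vegfc, Unc5b and Hey1 of the arterial list. When it was set against endothelial-like cells alone, its leading genes included Aldoc, Slc1a2 and Ntsr2 of the astrocyte marker list. The part of astrocyte or mural RNA in its levels was not tested. Without this cluster, a choice made after seeing the data, the endothelial-like level was 4.63 ± 2.06 CPM and the ratio 433. Thinned to 1000 UMIs, 84.5% and 86.4% of pericyte-like cells held a UMI, against 24.7% and 22.1% of VSMC-like cells and 0.066% and 0.1% of microglia-like cells.

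Fibroblasts and astrocytes held Pdgfrb at lower levels. Fibroblast-like cells held 146.8, 197.0 and 203.8 CPM in the cortex and 273.0, 426.5 and 351.3 CPM in the hippocampus, with no overlap and a log2 ratio of 0.98 (0.62 to 1.34). Summed pericyte markers in the same cells were 5492 to 6454 CPM and 10475 to 14268 CPM, and their part in this difference was not tested. Astrocyte-like cells held 69.9, 78.1 and 73.1 CPM and 87.2, 87.3 and 96.0 CPM, and in number they supplied 21.8% and 15.1% of all Pdgfrb UMIs. The mixed endothelial and mural class supplied 35.3% and 30.2%, and pericyte-like cells 21.4% and 44.1%.

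The proportions between members differed in astrocyte-like cells. In pericyte-like cells there were 5.05 and 3.12 Rgs5 UMIs for each Pdgfrb UMI, but 0.32 and 0.14 in astrocyte-like cells, which held 4 and 11 Kcnj8 UMIs in all. A Pdgfrb UMI was found in 5.64% and 8.47% of astrocyte-like cells thinned to 1000 UMIs (32.9% and 40.0% before). The microglia-like shares given above (0.34% and 0.68% before thinning) were lower at a similar median depth.

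**Figure D3:**
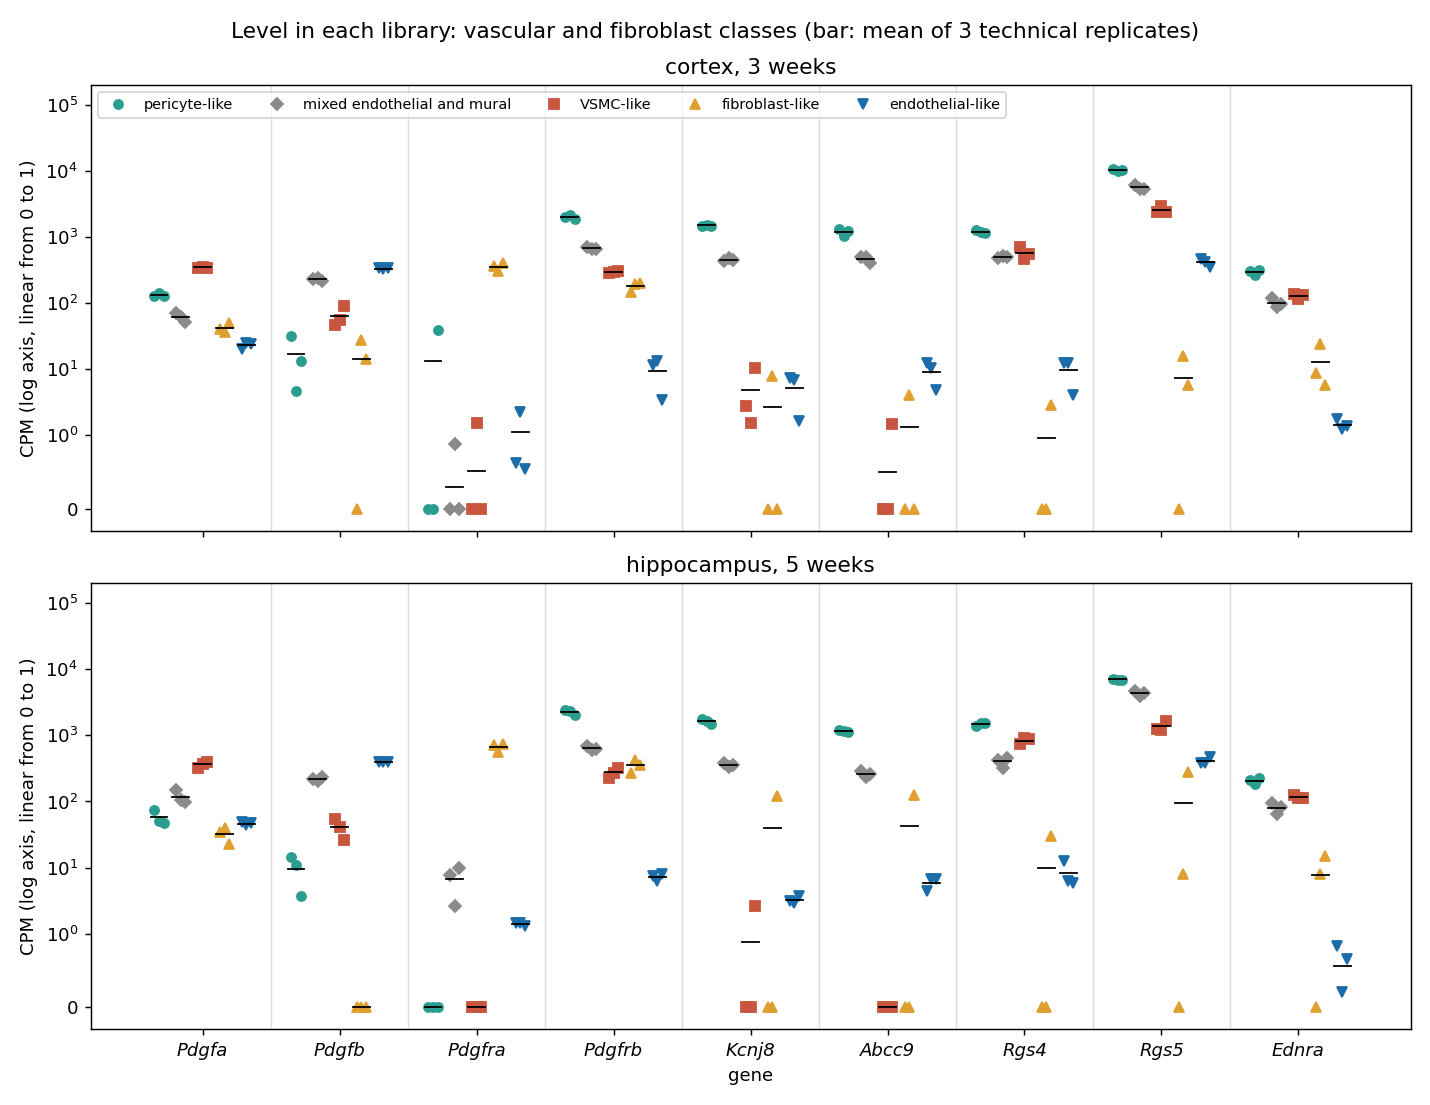
Level of each gene (x axis) in the pericyte-like, mixed, VSMC-like, fibroblast-like and endothelial-like classes of the cortical (top) and hippocampal preparation, with 1 point per library and a line at the mean of 3 (y axis in CPM, log scale, linear from 0 to 1). Replicate libraries of a class lie close together for the abundant genes, and the isolated points at low level are the cases in which a few cells supply the UMIs.

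Kcnj8, which encodes the pore of the KATP channel, was high in pericyte-like cells and near 0 in VSMC-like and endothelial-like cells of both preparations. It measured 1492, 1543 and 1483 CPM in the cortical libraries (1506 ± 32; 938 UMIs) and 1768, 1639 and 1468 CPM in the hippocampal ones (1625 ± 151; 2572 UMIs), a log2 ratio of 0.11 with overlapping libraries. VSMC-like cells held 10 and 1 UMIs, so the pericyte-like level was 305 times theirs in the cortex (165 to 638) and 2010 times in the hippocampus (360 to 79425). The wide interval reflects the single UMI, and 5 of 7 VSMC-like UMIs of the third cortical library lay in 1 cell. Endothelial-like cells held 125 and 46 UMIs (5.28 ± 3.16 and 3.26 ± 0.43 CPM), a ratio of 280 (232 to 340) and 499 (373 to 683), the former 427 without the cortical cluster of 209 cells.

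Abcc9, the regulatory subunit, had the same pattern. Pericyte-like cells held 1320, 1053 and 1237 CPM in the cortex (1203 ± 137; 747 UMIs) and 1192, 1166 and 1109 CPM in the hippocampus (1156 ± 43; 1833 UMIs), a log2 ratio of −0.05 (−0.18 to 0.07) with overlapping libraries. In VSMC-like cells there was 1 UMI in the cortex, for a ratio of 2430 (435 to 96115), and 0 in the hippocampus, where the pericyte-like level was at least 478-fold higher by the same floor (2.42 CPM). Endothelial-like cells held 218 and 84 UMIs, and the pericyte-like CPM was 128 and 195 times theirs.

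The subunits were high in the same named classes. Over the 28 named classes of both preparations, which share libraries and depth, Abcc9 was the gene most like Kcnj8 among 9600 genes. Pearson r of log2(CPM + 5) was 0.98, a description, and Pde4c followed (0.97). The value rests on the pericyte-like class of each preparation. In the other named classes no mean of either gene passed 9.26 CPM, except in hippocampal fibroblast-like cells (39.9 and 42.4 CPM, from the third library only). It therefore says little about variation among the other classes. For Abcc9 the next genes after Kcnj8 were Dkk2 (0.96) and Ggt1 (0.96), of which Ggt1 is in the pericyte marker list. The other members had other nearest genes: Pja2 for Pdgfa (0.80), Lmo2 for Pdgfb (0.88), Adam12 for Pdgfra (0.90), Lhfp for Pdgfrb (0.95), Ndst3 for Rgs4 (0.97), the pericyte marker Higd1b for Rgs5 (0.95) and Heyl for Ednra (0.93).

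Many of the same cells held both subunits. Thinned to 1000 UMIs, 69.8% of cortical and 72.1% of hippocampal pericyte-like cells held a Kcnj8 UMI, 65.9% and 61.7% an Abcc9 UMI, and 52.7% and 46.6% both, where the product of the separate shares is 46.0% and 44.5%. The excess over the product, small in the hippocampus, was not tested. Before thinning Kcnj8 was found in 97.7% and 89.1% and Abcc9 in 90.7% and 87.7%. Microglia-like cells, as background, held a Kcnj8 UMI in 0.033% and 0.1% and an Abcc9 UMI in 0.082% and 0.083% of thinned cells. Pericyte-like cells (median 4340 and 4583 UMIs) were shallower than microglia-like cells, and 0 and 30 of them fell below 1000 UMIs.

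Outside pericyte-like cells the channel genes were highest in the mixed class. The mixed endothelial and mural class held 457.5 ± 24.1 and 357.6 ± 28.7 CPM of Kcnj8 and 467.6 ± 57.1 and 263.7 ± 25.9 CPM of Abcc9, and supplied 54.5% and 33.1% of all Kcnj8 UMIs. Doublets were called in 20 of 186 and 65 of 265 of these cells. Microglia markers (11 genes) in the mixed class summed to 86.4 to 238 CPM in the cortex and to 4496 to 5321 CPM in the hippocampus. Their part in its levels was not tested. Hippocampal fibroblast-like cells held 0, 0 and 119.6 CPM of Kcnj8 and 0, 0 and 127.1 CPM of Abcc9, from 4 and 3 cells of the third library only. A single cell of that library supplied 37 of the 38 Rgs5 UMIs of that class.

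The hippocampal pericyte-like cells fell into 2 clusters that differed in these genes. The larger, of 316 cells, held 1784, 1682 and 1486 CPM of Kcnj8 and 1175 ± 41 CPM of Abcc9. The smaller, of 51 cells with 48857 UMIs in all, held 856.0, 747.8 and 851.2 CPM of Kcnj8 (39 UMIs) and 581 ± 140 CPM of Abcc9 (27 UMIs), below the larger in every library. Its Pdgfrb level was lower too (938 ± 307 against 2295 ± 211 CPM), while its Rgs5 level was higher (10498 ± 1267 against 6908 ± 210 CPM). The cortical pericyte-like cells formed 1 cluster.

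The genes of the channel are neighbours. On GRCm38 Kcnj8 lies at chr6:142564837-142571614 and Abcc9 at chr6:142587862-142702315, both on the minus strand with 16.2 kb between them. Because both are on in 1 class, the bases before their transcript starts are shown, read 5′ to 3′ on the minus strand from RefSeq's GRCm38.p6 promoter entries. The Kcnj8 run spans chr6:142571615-142571864 and ends 1 base before the start, and the Abcc9 run spans chr6:142702316-142702524 and ends 42 bases before it, with a TGGGAA match (the core of sites bound by RBPJ) in capitals.
Kcnj8: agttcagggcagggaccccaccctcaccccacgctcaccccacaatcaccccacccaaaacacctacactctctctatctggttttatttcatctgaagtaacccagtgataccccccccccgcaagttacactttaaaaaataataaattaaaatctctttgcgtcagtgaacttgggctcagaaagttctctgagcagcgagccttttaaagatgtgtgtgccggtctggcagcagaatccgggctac
Abcc9: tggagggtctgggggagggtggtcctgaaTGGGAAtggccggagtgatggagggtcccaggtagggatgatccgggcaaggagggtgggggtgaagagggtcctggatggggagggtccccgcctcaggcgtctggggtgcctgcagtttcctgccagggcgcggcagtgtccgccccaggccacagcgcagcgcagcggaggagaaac
Of the 9 genes 7 had a promoter entry, and Pdgfb and Pdgfrb had none. On both strands TGGGAA was found in the Pdgfa, Kcnj8 and Abcc9 windows (250 bases before to 50 after the start), at −13, 1 and −221 from the start, and in 25.6% of all 32851 promoters. The CArG box of smooth muscle genes was found in none of the 7 genes and in 1.63% of promoters. Matches are descriptions of the letters and not sites.

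Rgs4, a regulator of G protein signalling, was shared by pericytes and VSMC. Pericyte-like cells held 1282, 1176 and 1153 CPM in the cortex (1204 ± 69) and 1373, 1561 and 1525 CPM in the hippocampus (1486 ± 99). VSMC-like cells held 704.5, 466.6 and 545.9 CPM (572.3 ± 121.1) and 732.4, 899.3 and 869.5 CPM (833.7 ± 89.0). The pericyte-like level was 2.08 and 1.79 times the VSMC-like one with no overlap in either preparation. Both classes were higher in the hippocampus with no overlap, by a log2 ratio of 0.31 (0.19 to 0.43) and 0.53 (0.41 to 0.65), where the median over all genes compared was 0.05 and 0.06.

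Rgs4 was also found in the mature neuron-like cluster. Mature neuron-like cells of the hippocampus held 233.0, 285.0 and 300.1 CPM (272.7 ± 35.2), and 19.0% of them held a UMI after thinning to 1000 UMIs (78.5% before), against 0.05% of microglia-like cells. Ependymal-like cells held 66.1, 60.2 and 97.6 CPM. Summed pericyte markers in the mature neuron-like cells were 50.5 to 405 CPM. Precursor-like cells of the hippocampus held 0 UMIs.

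Rgs5, a relative of Rgs4 known as a pericyte gene, was lower in the hippocampal preparation in both mural classes. Pericyte-like cells held 10603, 9898 and 10217 CPM in the cortex (10239 ± 353) and 7201, 6969 and 6904 CPM in the hippocampus (7025 ± 156). VSMC-like cells held 2420, 2948 and 2413 CPM (2594 ± 307) and 1263, 1195 and 1660 CPM (1372 ± 251). From cortex to hippocampus the level fell by 0.54 in pericyte-like cells (interval −0.59 to −0.50) and by 0.93 in VSMC-like cells (−1.01 to −0.85) on the log2 scale, with no overlap in either, which is the opposite direction to Rgs4 in the same cells. Pericyte-like cells held 3.96 and 5.16 times the VSMC-like level. In all, pericyte-like cells held 6367 and 11142 Rgs5 UMIs, fewer than the 17257 and 16641 of the mixed endothelial and mural class. The mixed class did not share the opposite directions when set against Pdgfrb. For each Pdgfrb UMI it held 0.74 and 0.63 Rgs4 UMIs, against 0.59 and 0.66 in pericyte-like cells. Its Rgs5 UMIs for each Pdgfrb UMI were 8.29 and 6.79.

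Endothelial cells carried Rgs5 at a level that did not differ between preparations beyond its spread. They held 469.2, 416.2 and 356.1 CPM in the cortex (413.8 ± 56.6) and 379.3, 377.4 and 473.3 CPM in the hippocampus (410.0 ± 54.8), and the pericyte-like level was 24.6 and 17.2 times theirs. Without the cortical cluster of 209 cells, a choice made after seeing the data, the cortical level was 348.0 ± 46.0 CPM and the ratio 29.3. Its libraries still overlapped the hippocampal ones. A UMI was found in 16.8% and 14.0% of all endothelial-like cells thinned to 1000 UMIs (44.3% and 34.2% before, median 7090 and 6883 UMIs), against 0.541% and 0.835% of microglia-like cells (2.58% and 4.06% before). There were 77.2 and 125.9 Rgs5 UMIs for each Kcnj8 UMI in endothelial-like cells and 6.79 and 4.33 in pericyte-like cells. In cortical VSMC-like cells there were 524, on 10 Kcnj8 UMIs. Summed VSMC markers in endothelial-like cells were 152 to 223 CPM in the cortex and 79.8 to 168 CPM in the hippocampus. Summed pericyte markers were 99.2 to 198 and 143 to 183 CPM. The part of mural RNA in the endothelial-like Rgs5 level was not tested.

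The segments differed in Rgs5. Arterial-like cells held 607.3 ± 115.1 and 548.7 ± 102.2 CPM, and venous-like cells 110.1 ± 44.8 CPM in the cortex and 346.7 ± 57.4 CPM in the hippocampus. Angiogenic-like cells of the cortex spread from 108.1 to 486.8 CPM between libraries. Capillary-like cells of the hippocampus held 338.9 ± 34.3 CPM, which the venous-like libraries overlapped. Of the cortical endothelial-like cells 2103 of 2594 were in no named segment (414.1 ± 53.9 CPM), and among them the cluster of 209 cells described under Pdgfrb held 1017 ± 145 CPM.

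Few cells outside the vessel wall held Rgs5, and single cells decided several of those values. In mature neuron-like cells it measured 108.5, 93.8 and 300.1 CPM, with 43 of the 77 UMIs of the third library in 1 cell. In macrophage-like cells of the hippocampus 93 of the 97 UMIs of the second library came from 1 cell. Immature neuron-like cells held 2 UMIs in the cortex and 105 in the hippocampus, of which 35 of the 46 in the third library lay in 1 cell.

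Rgs5 and Rgs4 are neighbours as well, on opposite strands of chromosome 1: Rgs5 at chr1:169655501-169695813 on the plus strand and Rgs4 at chr1:169741477-169747642 on the minus strand, 45.7 kb apart. Their promoter runs are shown because the pair differed between preparations in opposite directions in pericyte-like and VSMC-like cells. The Rgs4 run spans chr1:169747643-169747892 and the Rgs5 run chr1:169655251-169655500, each ending 1 base before the start, with a TATAAA match (the TATA box) in capitals.
Rgs4: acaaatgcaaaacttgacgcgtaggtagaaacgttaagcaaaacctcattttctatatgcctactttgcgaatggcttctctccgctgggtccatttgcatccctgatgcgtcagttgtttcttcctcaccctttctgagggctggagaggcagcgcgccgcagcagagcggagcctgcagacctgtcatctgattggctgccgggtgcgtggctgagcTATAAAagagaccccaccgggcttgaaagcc
Rgs5: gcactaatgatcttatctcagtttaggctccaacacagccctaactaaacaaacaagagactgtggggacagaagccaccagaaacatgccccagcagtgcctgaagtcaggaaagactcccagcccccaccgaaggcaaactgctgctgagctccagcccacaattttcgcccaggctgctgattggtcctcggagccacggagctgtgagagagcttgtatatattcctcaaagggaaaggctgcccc
The TATAAA of Rgs4 starts at −31 and was the single such match in the 7 genes, where 13.6% of all promoters hold one. The windows were also read for the GC box (GGGCGG), the Sp1 GA box (GGGAGG), the NFAT core (GGAAAA), the cyclic AMP element (TGACGTCA) and the E box (CANNTG), and neither capitalised match overlapped one of these.

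Ednra, the receptor through which endothelin contracts mural cells, was highest in pericyte-like cells and next in VSMC-like cells. Pericyte-like cells held 301.7, 266.7 and 316.9 CPM in the cortex (295.1 ± 25.7) and 213.7, 183.5 and 223.6 CPM in the hippocampus (206.9 ± 20.9). The level fell by 0.52 on the log2 scale from cortex to hippocampus (interval −0.78 to −0.25), with no overlap. VSMC-like cells held 129.5 ± 10.8 and 116.8 ± 5.6 CPM, so that the pericyte-like level was 2.28 and 1.77 times theirs. Astrocyte-like cells held 13.8 ± 1.8 and 18.1 ± 1.0 CPM and, by their number, 21.9% and 20.9% of all Ednra UMIs. A UMI was found in 1.254% and 1.67% of them after thinning and in 0 of 6096 and 0 of 5989 microglia-like cells, where the limit of 3 counts corresponds to 0.0492% and 0.0501%. Before thinning 0.0486% and 0.0663% of microglia-like cells held one.

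Of the whole list, 7 of the 9 genes were over 2-fold higher in pericyte-like than in VSMC-like cells in the cortex and 4 of the 8 with enough UMIs in the hippocampus, where 24.1% and 26.6% of all genes compared were. Pdgfra is 1 of the cortical 7 through a single cell, and 6 remain without it. Over endothelial-like cells the counts were 8 of 9 and 6 of 9, where 16.5% and 17.5% of all genes were. In the cortex this count again includes Pdgfra.

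Between preparations few of the genes passed 2-fold. In endothelial-like cells 2 of 9 did (Pdgfa higher and Ednra, on 34 and 8 UMIs, lower in the hippocampus; 11.8% of all genes). Of the 34 cortical Ednra UMIs 24 came from the cluster of 209 cells described under Pdgfrb (10.6 CPM), and without it the log2 ratio turned from −1.37 to 0.24. It also turned with cells classed by own markers (0.39), and it fell under 2-fold without doublets (−0.58), under a 10% mitochondrial limit (−0.93) and as a mean over cells (−0.30). In pericyte-like cells 1 of 8 passed 2-fold (Pdgfa; 11.8%), and in VSMC-like cells 1 of 7 (Kcnj8, on 10 and 1 UMIs; 10.6%). In fibroblast-like cells 3 of 8 did (18.2% of all genes), namely Kcnj8, Abcc9 and Rgs5, nearly all from the cells of the third hippocampal library described above. In immature neuron-like cells, whose leading genes differ between preparations, Rgs5 was the 1 of 5 (17.6%). In astrocyte-like cells Kcnj8 was the single one (13.8%), in microglia-like cells Pdgfra (10.7%), in macrophage-like cells there were 2 of 3 (15.4%) and in oligodendrocyte-like cells 0 (9.12%). In these classes of few UMIs, Kcnj8 stood on 4 and 11, Pdgfra on 7 and 20, and Rgs5 of macrophage-like cells on 7 and 101, 93 of them from 1 cell. The 26 cortical oligodendrocyte-like cells held 84 Pdgfa UMIs and at most 1 UMI of any other member. With the floor of 3 UMIs, the 0 of that class therefore says little about members other than Pdgfa.

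Other genes of the same pathways were read from 6 lists. Astrocyte-like, oligodendrocyte-like and microglia-like cells were not ranked for them. Each gene is placed in its highest class among the endothelial, mural, fibroblast, precursor and neuron classes. Of the other PDGF genes 7 of 9 reached 50 CPM in at least 1 of these classes. Pdgfd, a ligand of PDGFRβ, was highest in endothelial-like cells (63.5 ± 5.2 and 55.5 ± 4.2 CPM), and Nrp1, a co-receptor of several growth factors, was too (261 ± 10 and 455 ± 9). Pdgfrl, a receptor-like gene, and Lrp1, a large endocytic receptor, were highest in fibroblast-like cells (237 ± 82 and 194 ± 24 CPM, and 445 ± 60 and 702 ± 15 CPM). Plat, a protease that can activate PDGF ligands, was highest in cortical pericyte-like cells (576 ± 62 CPM) and in hippocampal fibroblast-like cells (696 ± 71 CPM). Furin, a convertase, was highest in pericyte-like cells (66.4 ± 9.1 and 83.0 ± 11.1 CPM), and Sparc, a matrix protein that binds PDGF, in cortical pericyte-like (4030 ± 277) and hippocampal endothelial-like cells (2995 ± 58). Over VSMC-like cells 4 of 9 (cortex) and 5 of 9 (hippocampus) were past 2-fold in pericyte-like cells and 2 of 9 in each were lower, where 24.1% (cortex) and 26.6% (hippocampus) of all genes compared were higher and 7.53% and 9.9% lower.

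Genes of PDGF receptor signalling were broadly expressed, and 16 of 16 reached 50 CPM. In the cortex 8 were highest in pericyte-like and 5 in endothelial-like cells, and in the hippocampus 4 in endothelial-like, 4 in precursor-like and 3 in pericyte-like cells. The feedback inhibitors Spry1, Spry2 and Spry4 were highest in cortical pericyte-like cells (219 ± 21, 148 ± 20 and 144 ± 16 CPM). In the hippocampus Spry1 was highest in fibroblast-like cells (262 ± 40 CPM), and Spry2 (261 ± 96) and Spry4 (130 ± 30) in precursor-like cells. Over VSMC-like cells 8 of 16 were past 2-fold in pericyte-like cells of each preparation, against 24.1% and 26.6% of all genes, and 0 and 1 were lower, against 7.53% and 9.9%.

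Few of the other channel and RGS genes reached 50 CPM in the ranked classes, which leave out astrocyte-like, oligodendrocyte-like and microglia-like cells. Of the other inward rectifier and KATP subunits 3 of 8 did: Kcnj10, the glial channel Kir4.1, was highest in the precursor classes (183 ± 35 and 136 ± 33 CPM), Kcnj16 in hippocampal precursor-like cells (57.8 ± 11.96) and Kcnj12 in hippocampal VSMC-like cells (68.1 ± 12.5). The alternative KATP subunits Kcnj11 and Abcc8 did not (class means of at most 5.99 and 9.56 CPM, both in immature neuron-like cells). Of the other RGS genes of the R4 family 2 of 8 did, with Rgs3 highest in endothelial-like cells (101 ± 2 and 127 ± 0.34 CPM) and Rgs16 in cortical immature neuron-like (52.9 ± 18.4) and hippocampal fibroblast-like cells (67.9 ± 25.4). Of the RGS genes with enough UMIs, 2 of 3 and 2 of 4 were past 2-fold higher in pericyte-like than in VSMC-like cells, with 0 and 1 lower, and of the channel genes 0 of 1 in each. Over all genes 24.1% and 26.6% were higher and 7.53% and 9.9% lower.

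The endothelin list had 5 of 6 genes at 50 CPM. Edn1, the endothelial peptide, was highest in endothelial-like cells (260 ± 43 and 285 ± 18 CPM), and Ece1, the enzyme that matures it, in pericyte-like cells (423 ± 121 and 599 ± 27). Edn3 was highest in fibroblast-like cells (186 ± 102 and 840 ± 258), the other receptor Ednrb in the precursor classes (127 ± 68 and 513 ± 140), and Ece2 in hippocampal mature neuron-like cells (85.3 ± 12.7). Over VSMC-like cells 2 of 3 in the cortex and 2 of 4 in the hippocampus were past 2-fold in pericyte-like cells, where 24.1% and 26.6% of all genes were, and 1 in each was lower, where 7.53% and 9.9% were.

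Of other genes that regulate mural contraction 12 of 14 reached 50 CPM. Gucy1a1 and Gucy1b1, the subunits of the nitric oxide receptor, were highest in cortical pericyte-like cells (569 ± 35 and 858 ± 57 CPM). Their identifiers are in both annotations. Their symbols were matched in the cortical one alone, so they were not ranked in the hippocampus and their hippocampal levels are not given here. The calcium-activated chloride channel Ano1 (224 ± 22 and 199 ± 27 CPM) and the calcium channel Cacna1c (129 ± 10 and 71.9 ± 3.6) were highest in pericyte-like cells of both preparations, as was the calcium release channel Itpr1 (211 ± 44 and 285 ± 19). Pde3a, which breaks down cyclic nucleotides, was highest in VSMC-like cells (420 ± 32 and 503 ± 27), as was the kinase Prkg1 (90.4 ± 10.3 and 103 ± 4). The phosphodiesterase Pde5a was highest in cortical pericyte-like (246 ± 19) and hippocampal VSMC-like cells (339 ± 68). The adrenergic receptors Adra1a (106 ± 6 in the hippocampus) and Adra2a (63.8 ± 22.3 in the cortex) were highest in fibroblast-like cells, and the potassium channel Kcnma1 in hippocampal mature neuron-like cells (72.1 ± 22.7). Of the genes with enough UMIs, 5 of 12 and 2 of 8 were past 2-fold higher in pericyte-like than in VSMC-like cells (24.1% and 26.6% of all genes). In each preparation 2 were lower (7.53% and 9.9%). The hippocampal count could not include Gucy1a1 and Gucy1b1, so the counts of the preparations cover different genes.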

How the data were processed

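The authors deposited raw UMI counts per gene and barcode for 6 libraries. The submitters' processing notes name Cell Ranger 5.0.1 and mm10, while the matrix headers give 3.0.1 (cortex) and 3.1.0 (hippocampus). Other counting settings, strand included, are not given in the sources used here, and exons of Pdgfa, Pdgfra, Abcc9 and Ednra overlap antisense genes by up to 813 bases. The members and all lists were chosen with earlier results of these data known.

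Cells with 250 to 6000 genes and under 25% mitochondrial UMIs were kept. Each preparation was integrated over its replicates and clustered in Seurat 5.3.0 (R 4.3.3; log scale 10000, 2000 variable genes, 30 components, resolution 0.5), and vascular cells were clustered again below 15% mitochondrial UMIs, which left out 132 and 120 cells. A cluster took a name from at least 3 detected markers of 22 lists, and 94.2% and 93.3% of kept cells were named. The mixed class, the cortical endothelial-like cluster left out in an alternative, the class with precursor and committed markers, the second clustering of neural cells and a check of leading genes for segments were set after seeing the data. Doublets called by Scrublet (scanpy 1.11.5; 191 to 257 per library) were kept and left out as an alternative.

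UMIs were summed per class and library and scaled to CPM (numpy 2.4.6, pandas 2.3.3), and shares of cells were taken after thinning to 1000 UMIs. Intervals are exact Poisson, Clopper-Pearson or conditional binomial at 95% (scipy 1.17.1) and cover counting error only. Ratios between classes and preparations used UMIs pooled over the 3 libraries, genes needed 10 UMIs, and the fold limit was 2. A count of 0 was read against a floor of 3 UMIs. Genes named are the 9 members, pathway genes at 50 CPM or more in 1 of the 8 classes of interest, and for each member the nearest 3 of 9600 genes by pattern, shown here as the nearest 1, or more for the channel genes. Some genes that this rule selects are not reported here. The code for the ratio interval and the 2-fold call was tested on counts simulated from the summed pericyte-like and VSMC-like UMIs.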

Additional observations from a re-analysis of the deposited data

Results flagged for a closer look

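A signal from the 9 genes was found in barcodes that the cell filters removed. The 4617 cortical barcodes left out held 33156 UMIs of these genes, 29.8% of the 111266 in all deposited cortical barcodes, and the 1126 hippocampal ones held 29729, 25.7% of 115560. The same barcodes held 24.6% and 17.6% of the UMIs of all genes. Rgs5 was the member with the highest removed share in the cortex (37.5% of its UMIs), and 34.8% of its hippocampal UMIs were removed. In the cortex the other 8 members lay below the share of all genes, and in the hippocampus 5 of the 8 did, among them Pdgfb (11.1% and 11.52%) and Kcnj8 (19.2% and 8.12%). These barcodes were not assigned to classes, and what they are was not tested.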

How the results depend on the processing

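No paired analysis was possible because each preparation is 1 pooled sample and no test was made. Under all alternatives together, 106 of 134 counts stayed within 1.5 times the reported count, 1364 of 1494 levels within 1 SD, 717 of 756 log2 ratios on their side of 2-fold and 42 of 81 shares within their interval. Ratios that reversed were Ednra in endothelial-like cells when cells were classed by their own markers (log2 hippocampus over cortex 0.39) and without the cortical endothelial-like cluster highest in Rgs5 (0.24, chosen after seeing the data), Pdgfb in fibroblast-like cells (log2 hippocampus over cortex 1.37) with all variable genes in the clustering and at resolution 1.0, and 3 when the mixed class was counted as pericyte-like, an alternative chosen after seeing the data: Pdgfb of pericyte-like over VSMC-like cells (log2 1.59 in the cortex and 1.94 in the hippocampus) and Pdgfa in pericyte-like cells (log2 hippocampus over cortex 0.44).

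Members past 2-fold between preparations numbered 1, 0, 0 and 0 in endothelial-like, pericyte-like, VSMC-like and fibroblast-like cells classed by own markers. They were 1, 2 and 0 in the first 3 of these without doublets, and 0, 0 and 2 with the mean over cells. Endothelial-like cells had 1 under a 10% mitochondrial limit, without mitochondrial, ribosomal and haemoglobin UMIs, with median scaling, and without the cortical cluster highest in Rgs5. Pericyte-like cells had 0 at resolution 1.0 and with the mixed class counted, VSMC-like cells 0 without mural cells over 0.5% endothelial UMIs, and immature neuron-like cells 3 under the 10% limit and with all variable genes. With the mixed class counted, 1 member in each preparation was higher in VSMC-like than in pericyte-like cells.

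Without 1 replicate at a time the counts ranged from 1 to 4 in endothelial-like, 1 to 2 in pericyte-like, 0 to 1 in VSMC-like, 1 to 3 in fibroblast-like and 1 to 2 in immature neuron-like cells, and from 5 to 7 for pericyte-like over VSMC-like cells in the cortex. Pdgfa in pericyte-like cells fell under 2-fold with own markers (−0.99), at resolution 1.0 (−0.22) and with the mean over cells (−0.89). The 10% limit gave no hippocampal VSMC-like class and all variable genes no cortical pericyte-like class, so those values could not be had. The causes were not tested. The number of cells limits the hippocampal fibroblast-like class (38) and the cortical precursor and committed class (40), and single cells supplied several of the values given.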
